A study of Rattus norvegicus with 113 samples.

Results

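Leukocyte adhesion molecules were followed in the rat brain from 24 hr to 12 months after traumatic brain injury (TBI). The group holds 10 genes listed by symbol, namely Icam1, Vcam1, Sele, Selp, Selplg, Itgb2, Itgam, Itgal, Itga4 and Cd44, and a probe belonged to it when the RefSeq identifier given for the probe named one of them. Of the 10 genes, 9 had a matched probe, with 12 probes among the 45598 of the larger array design and 13 probes among the 30367 of the smaller design; Selplg had no match. The brightest probe of a gene on each design, by its mean over all arrays, stands for it, and other probes are named where they differ. Adult male Sprague-Dawley rats received a parasagittal fluid percussion injury (TBI) or the same anesthesia and skull opening with no injury (sham), and naive rats were neither anesthetized nor operated on. The labels call the injury moderate and the methods call it severe. Hippocampus and cortex of single rats were taken at 24 hr, 2 weeks, 3 months, 6 months and 12 months, and each sample was hybridized to 1 Agilent array with 1 dye. There were 4 rats in each group, except in the hippocampus at 24 hr, with 3 TBI rats, 2 sham rats and no naive rat analysed here.

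Leukocytes leave the blood in steps. Selectins on activated endothelium (Sele, Selp) bind sugars on leukocyte ligands such as Selplg and let the cells roll, and leukocyte integrins then bind immunoglobulin-like ligands on the vessel wall and hold them. The beta 2 integrin chain Itgb2 pairs with Itgal (LFA-1) or Itgam (Mac-1), and both bind Icam1, whereas Itga4 pairs with a beta 1 chain (VLA-4) and binds Vcam1. Microglia, the resident macrophages of the brain, also carry Itgam and Itgb2. Cd44 is the receptor for hyaluronan and for osteopontin (Spp1), and it is carried by leukocytes and by reactive glia.

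Of the 10 genes, 6 had a promoter in the RefSeq table (build GRCr8). The 250 bases before the start site are shown for both integrin ligands, Icam1 and Vcam1, and for Itgam and Cd44, the members called against sham in the hippocampus, with the motifs searched in capitals. The windows are Icam1 at chr8:27829595-27829844 (plus strand), Vcam1 at chr2:206742784-206743033 (minus strand), Itgam at chr1:192089342-192089591 (plus strand) and Cd44 at chr3:109699425-109699674 (minus strand).
Icam1: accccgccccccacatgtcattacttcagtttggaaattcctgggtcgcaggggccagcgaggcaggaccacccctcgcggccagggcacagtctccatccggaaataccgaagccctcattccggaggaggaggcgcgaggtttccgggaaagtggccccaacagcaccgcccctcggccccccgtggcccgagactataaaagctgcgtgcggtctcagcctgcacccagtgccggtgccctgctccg
Vcam1: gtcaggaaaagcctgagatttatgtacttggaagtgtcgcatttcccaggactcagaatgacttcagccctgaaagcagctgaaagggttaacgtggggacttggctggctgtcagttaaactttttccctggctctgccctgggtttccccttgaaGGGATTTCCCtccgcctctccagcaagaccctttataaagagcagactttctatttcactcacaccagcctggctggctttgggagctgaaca
Itgam: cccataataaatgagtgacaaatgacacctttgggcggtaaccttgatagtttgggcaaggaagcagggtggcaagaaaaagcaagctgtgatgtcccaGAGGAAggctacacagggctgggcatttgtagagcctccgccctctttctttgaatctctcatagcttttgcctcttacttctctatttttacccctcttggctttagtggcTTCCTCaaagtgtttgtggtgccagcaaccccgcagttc
Cd44: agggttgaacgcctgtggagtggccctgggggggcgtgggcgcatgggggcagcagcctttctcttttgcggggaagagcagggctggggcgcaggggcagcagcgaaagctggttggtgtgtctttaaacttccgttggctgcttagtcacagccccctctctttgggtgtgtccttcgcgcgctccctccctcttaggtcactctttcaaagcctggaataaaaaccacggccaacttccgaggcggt
The NF-kB consensus motif, bound by the factor that activates many endothelial adhesion genes in inflammation, was searched on both strands and found in the Vcam1 window, with its last base 84 bases before the start site, where the consensus matches on either strand. It was present in 6.33% of all 33469 promoters of this length. The letters GAGGAA, a core bound by the myeloid factor PU.1, were found in the Itgam window on the forward strand, ending 146 bases before the start site, and on the reverse strand, ending 34 bases before it. They were present in 23.3% of all promoters. Neither motif, as searched, was found in the windows of Icam1, Cd44, Sele or Itga4. The NF-kB search counted only exact matches to 1 consensus of 10 bases. Stretches that depart from it were not counted, such as tggaaattcc in the Icam1 window and gggtttcccc in the Vcam1 window. The absence of a match therefore does not show that a window lacks a site for the factor. A match describes these letters and was not tested as a binding site.

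All values below are log2 processed signals relative to the median of the array, so that a difference of 1 is a 2-fold difference. The share of probes well above background, the scanner software's flag for a signal clear of its local background, ran from 41.2% to 93.0% of an array, with a median of 56.0%. No spot reached saturation. The number of arrays limits the precision. The array of cortex sham rat 3 at 2 weeks stood apart from all others: it held the highest share above background, with 72.4% as the next highest, and its median log2 signal was 10.8 against 4.93 to 7.50 in the other arrays. Comparisons that use it are given with and without it, a choice made after the data were seen. The array of cortex naive rat 4 at 2 weeks had the highest median of the other arrays, 7.50, with 65.2% of probes above background. It also had low values for several of the genes, and it was kept unless its removal is stated. Hippocampus arrays of 24 hr and 3 months were of the smaller design (17 arrays) and all other arrays of the larger one (96 arrays), so levels are not set against each other across designs. Every group lay on 1 slide of its own or shared a slide with another whole group. TBI and sham arrays shared a slide at 3 and 12 months in both tissues and, for hippocampus alone, at 2 weeks, and sham and naive arrays did so at 6 months in both tissues and, for cortex alone, at 24 hr and 2 weeks. In all remaining comparisons, which include every one of TBI against naive, slide and group cannot be told apart.

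In naive brain at 2 weeks, 6 months and 12 months (12 arrays per tissue), Cd44 ranged from -0.60 to 1.98 in the cortex (median 1.09) and from 2.03 to 3.14 in the hippocampus (median 2.49), and the ranges did not overlap. Icam1 had a median of 3.46 in the cortex (1.67 to 3.73) and 2.82 in the hippocampus (2.07 to 3.73). Vcam1 had medians of 5.83 (4.21 to 6.10) and 6.08 (5.57 to 6.72), Itgb2 1.96 (-0.11 to 2.90) and 2.55 (1.45 to 4.53), and Itgam 2.75 (1.16 to 4.62) and 3.07 (2.32 to 6.03), in the same order of tissues. For these 4 genes the ranges of both tissues overlapped. The tissues lay on different slides, and no test was made between them. The highest naive values of Itgb2, Itgam, Vcam1 and Icam1 in the hippocampus all came from rat 3 at 6 months, in which Itgal was also well above background at 1.60. On the larger design Icam1, Itgb2 and Itgam were well above background in 96 of 96 arrays and Cd44 and Vcam1 in 95. A spot of Vcam1 was missing in hippocampus TBI rat 2 at 6 months, where n is 3.

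Both endothelial selectins were at the limit of detection. On the larger design, the brighter Sele probe was well above background in 2 of 96 arrays, a TBI cortex at 24 hr (-0.82) and a TBI hippocampus at 2 weeks (0.14), and in no array of 22 of the 24 groups. A second Sele probe was above background in cortex TBI rats 1 (-0.27) and 4 (-0.90) at 24 hr. Selp was above background in 5 of 96 arrays, none of them from a TBI rat, and in no array of 20 groups. Neither was above background in any of the 17 arrays of the smaller design. No comparison could be made for either gene. Itgal was above background in 17 of 96 arrays and in none of the smaller design, and Itga4 in 50 of 96 and 3 of 17, so both are described only where a group lay above background.

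**Figure D1:**
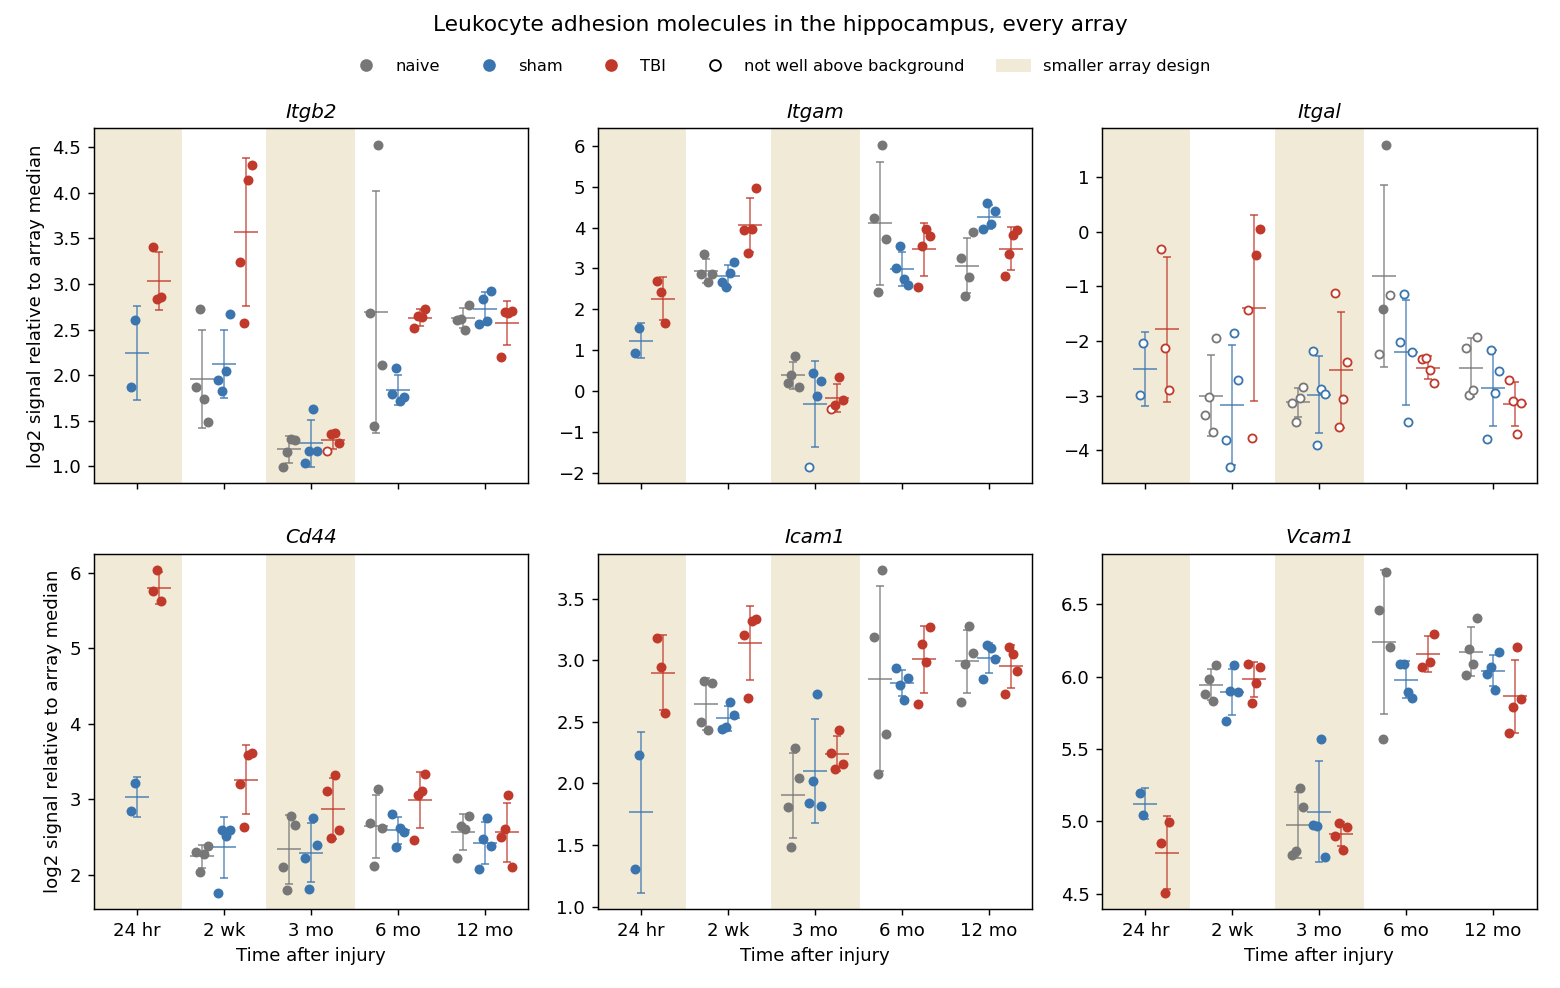
Log2 signal relative to the array median of 6 adhesion genes in the hippocampus of naive (grey), sham (blue) and TBI (red) rats by time after injury; each point is 1 array, the horizontal bars are group means and the vertical bars SDs, open points are not well above background, and shaded intervals were measured on the smaller array design, whose levels are not comparable with the others. At 24 hr the 3 TBI values of Cd44 lie between 5.62 and 6.03 and both sham values at or below 3.22.

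In the hippocampus 24 hr after TBI, Cd44 rose and was the only member called. Its values were 5.75, 6.03 and 5.62 in the 3 TBI rats and 2.84 and 3.22 in the 2 sham rats, and the groups did not overlap. The difference was 2.77 ± 0.19 (SE), a 6.81-fold higher signal (limma, adjusted p = 0.0033). Of the 9 genes with a probe, 5 were tested and 1 was called, beside 13.5% of all tested probes. In bulk tissue such as this, more cells of a type and more RNA per cell cannot be told apart. Cd44 was called when any 1 of the 5 arrays was left out, with differences between 2.58 and 2.96, although 2 of these fits leave 1 sham array, which is assumed to vary like the TBI arrays, and without the filter on dim probes its adjusted p was 0.065. The 3 other Cd44 probes of the smaller design were not well above background, apart from 1 of them in 1 TBI array, and gave no second reading. Icam1, the ligand of LFA-1 and Mac-1, was 3.18, 2.95 and 2.57 after TBI and 1.30 and 2.23 in sham. Its difference of 1.13 ± 0.31 did not pass (limma, adjusted p = 0.0637). Itgam (difference 1.03 ± 0.34, adjusted p = 0.0989) and Itgb2 (0.79 ± 0.28, adjusted p = 0.117) also had TBI values above both sham values without passing. Vcam1 was 4.85, 4.50 and 5.0 after TBI and 5.20 and 5.04 in sham, the only tested member with all TBI values below the sham values, and differed by -0.34 ± 0.19 (adjusted p = 0.274). The sham arrays lay on another slide and were scanned on another day than the TBI arrays.

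Beside Cd44, genes of marker lists for blood-borne cells moved in the same 5 arrays, where 13.5% of all tested probes were called. Of a list of monocyte markers, 4 of 5 tested genes rose, and the summed level of the list (log2) was 8.44 to 8.90 after TBI and 6.39 to 6.74 in sham, with Ccr2 not well above background in either group. Of the neutrophil list, 2 of 3 tested genes rose, with summed levels of 4.04 to 6.73 and 2.29 to 2.50, while Camp, Elane, Mmp8, Ngp, Np4 and RatNP-3b were not well above background in any of the 5 arrays. Of the microglia and macrophage list, 2 of 10 rose (summed level 8.85 to 9.31 against 8.51 to 8.59), and of the endothelial list 0 of 8 (7.77 to 8.01 against 7.47 to 7.54). The part of these cells in the Cd44 signal was not tested.

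At 2 weeks the beta 2 integrin chain partner Itgam rose in the hippocampus. Its values were 3.94, 3.38, 3.97 and 4.98 in TBI rats and 2.67, 2.53, 2.88 and 3.16 in sham rats, with no overlap. The difference was 1.26 ± 0.29, or 2.39-fold (limma, adjusted p = 0.0483), and 1 of 6 tested members was called beside 2.32% of all tested probes. The call was lost in 7 of 8 fits that left out 1 array, where the adjusted p ran from 0.0155 to 0.133, and it was lost without the filter on dim probes (adjusted p = 0.164), with a replicate block (0.0787) and with the fit on 2 groups alone (0.0733). A second Itgam probe differed by 1.21 ± 0.38 (adjusted p = 0.0927). Itgb2 was 3.24, 2.57, 4.15 and 4.31 after TBI and 1.95, 1.83, 2.05 and 2.67 in sham (difference 1.44 ± 0.38, adjusted p = 0.0634), and the lowest TBI rat lay within the sham range. Icam1 was 3.21, 2.70, 3.32 and 3.34 against 2.44, 2.46, 2.66 and 2.55, a difference of 0.61 ± 0.15 with no overlap (adjusted p = 0.0515). Cd44 was 3.21, 2.63, 3.59 and 3.60 against 1.76, 2.59, 2.52 and 2.59, a difference of 0.89 ± 0.23, also with no overlap (adjusted p = 0.0622). Itgal was well above background in 2 TBI rats, at -0.42 and 0.05, and in no sham or naive rat, and was not tested. Vcam1 differed by 0.09 ± 0.10 and Itga4 by -0.24 ± 0.21, and neither passed (adjusted p = 0.589 and 0.492). TBI rat 2 was the lowest of the TBI rats for Itgam, Itgb2, Icam1 and Cd44 alike.

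Against naive rats of the same interval, 4 of 6 tested members were called higher in the hippocampus at 2 weeks, beside 12.8% of all tested probes. Cd44 rose by 1.01 ± 0.23, or 2.02-fold (adjusted p = 0.0186), with naive values of 2.30, 2.03, 2.27 and 2.38 that all lay below the TBI values. Itgb2 rose by 1.61 ± 0.38, or 3.05-fold (adjusted p = 0.0208), although naive rat 2, at 2.72, lay above the lowest TBI rat. Itgam rose by 1.13 ± 0.29, or 2.19-fold (adjusted p = 0.0267), from naive values of 2.86, 3.35, 2.66 and 2.86. Icam1 rose by 0.50 ± 0.15, or 1.41-fold (adjusted p = 0.0469), from naive values of 2.50, 2.84, 2.43 and 2.81 that overlapped the TBI range. The Icam1 call was lost in 7 of 8 fits that left out 1 array (adjusted p from 0.00731 to 0.131), that of Itgam in 4, that of Itgb2 in 3 and that of Cd44 in 2. Without the filter on dim probes none of the 4 was called, and with the fit on 2 groups alone 1 was. Sham rats did not differ from naive rats by the test for any of the 6 members, beside 8.97% of all tested probes, and 0 had an unadjusted p below 0.05 in limma. TBI minus sham and TBI minus naive use the same TBI arrays.

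At 2 weeks in the hippocampus, 8 of 10 genes of the microglia and macrophage list rose against sham (summed level 9.0 to 9.87 after TBI and 8.57 to 8.83 in sham), and 8 of 10 rose against naive (8.63 to 8.97). Of the monocyte list, 2 of 4 rose against sham (6.75 to 7.90 against 6.22 to 6.48) with Ccr2 not well above background, and of the neutrophil list 0 of 2 (2.22 to 3.21 against 2.17 to 2.54), with Elane, Mmp8, Ngp, Np4 and RatNP-3b not well above background. None of 9 endothelial genes was called. Of the blood list, 6 of 8 genes were lower than naive in both sham and TBI rats. Of all tested probes, 2.32% were called for TBI against sham and 12.8% for TBI against naive. The part of these cells in the integrin signals was not tested.

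At 3, 6 and 12 months no member was called in the hippocampus against sham. At 3 months 0 of 4 tested members passed in limma, with 1 at an unadjusted p below 0.05, beside 0.0134% of all probes. Cd44 there was 3.11, 2.48, 3.32 and 2.59 after TBI and 2.23, 1.81, 2.75 and 2.39 in sham (difference 0.58 ± 0.26, adjusted p = 0.85). At 6 months 0 of 6 passed, with 0 at an unadjusted p below 0.05, beside 0.0134% of all probes. Itgb2 at 6 months was 2.51, 2.65, 2.63 and 2.73 after TBI, above sham values of 1.79, 2.08, 1.71 and 1.76, but within the naive range of 1.45 to 4.53 (difference from sham 0.79 ± 0.39). At 12 months 0 of 6 passed, with 1 at an unadjusted p below 0.05, beside 0% of all probes. Itgam at 12 months was lower after TBI, at 2.81, 3.34, 3.83 and 3.95, than in sham, at 3.96, 4.60, 4.09 and 4.40 (difference -0.78 ± 0.32, adjusted p = 0.317), and naive rats had 3.27, 2.32, 2.79 and 3.89.

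**Figure D2:**
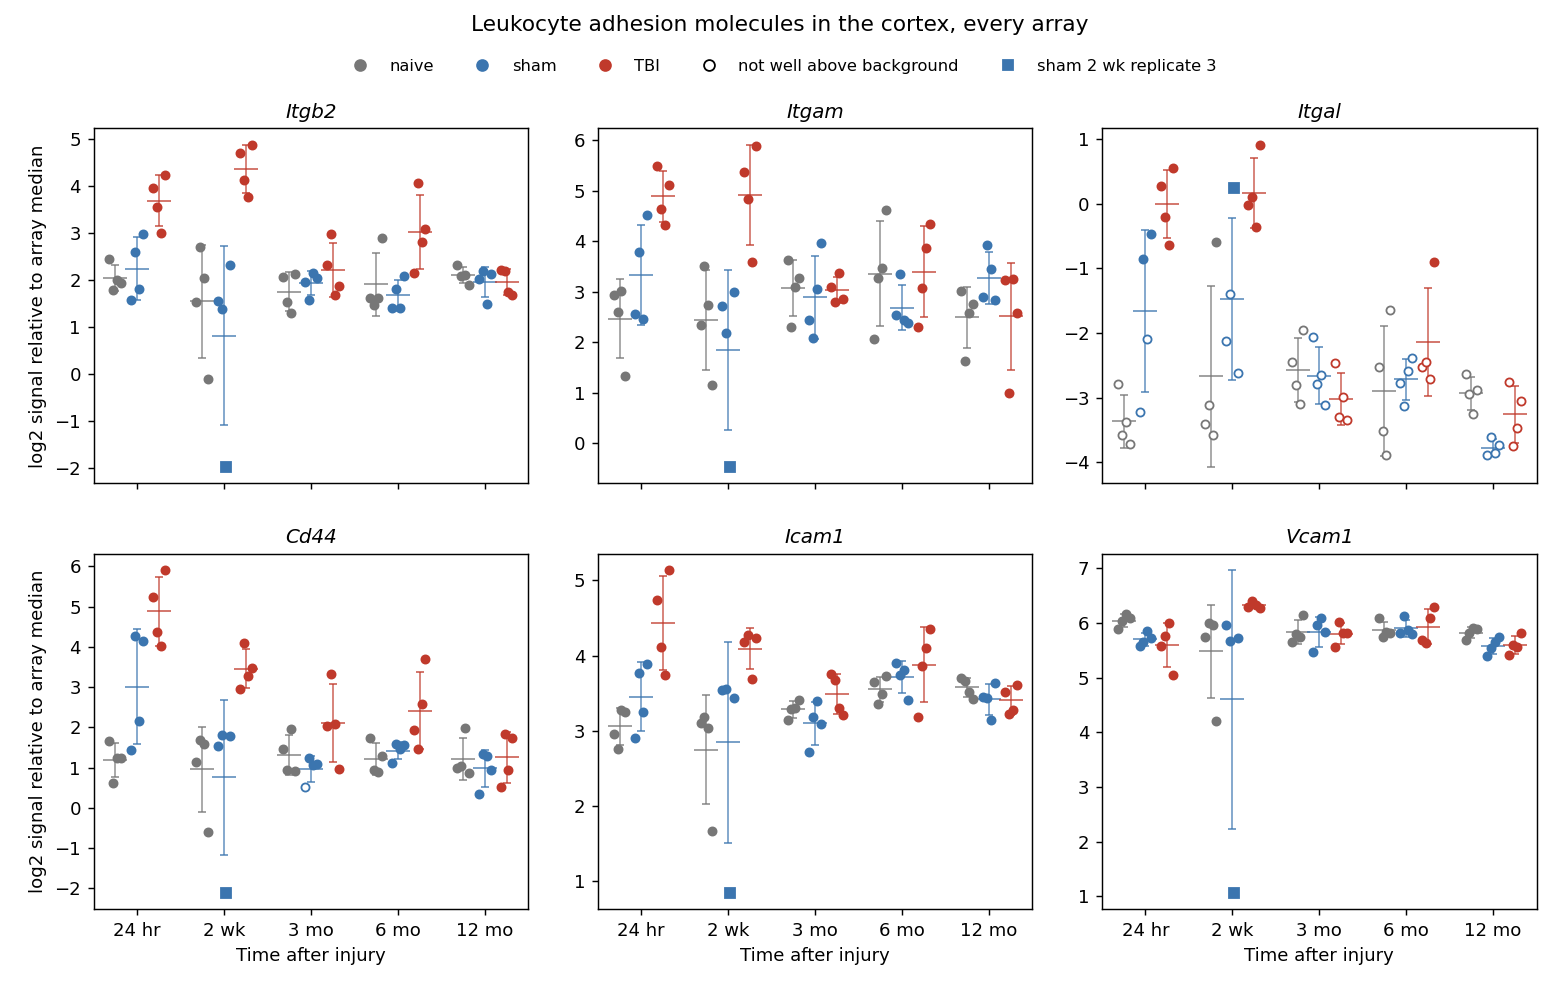
Log2 signal relative to the array median of 6 adhesion genes in the cortex of naive (grey), sham (blue) and TBI (red) rats by time after injury; each point is 1 array, horizontal bars are group means and vertical bars SDs, open points are not well above background and the square is sham rat 3 at 2 weeks. At 2 weeks the 4 TBI values of Itgb2 (3.75 to 4.87) lie above all sham and naive values.

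In the cortex at 24 hr, 6 of 7 tested members rose against naive, beside 17.5% of all tested probes. Of these members, Itgal and Itga4 were tested only because every TBI array had them well above background. Cd44 was 5.25, 4.36, 4.02 and 5.90 after TBI and 1.65, 0.62, 1.25 and 1.23 in naive rats, a difference of 3.70 ± 0.61, or 13-fold (limma, adjusted p = 0.00775). Itgal, the alpha chain of LFA-1, was 0.28, -0.21, -0.64 and 0.56 after TBI and not well above background in any naive rat, so its signal was at least 3.42-fold higher (adjusted p = 0.00728). Itgam was 5.48, 4.64, 4.33 and 5.10 against 2.94, 2.60, 3.00 and 1.32, a difference of 2.42 ± 0.49, or 5.36-fold (adjusted p = 0.0102). Itgb2 was 3.96, 3.55, 2.99 and 4.24 against 2.44, 1.78, 2.00 and 1.93, a difference of 1.65 ± 0.33, or 3.13-fold (adjusted p = 0.0102). Itgb2, Itgam, Itgal and Cd44 each had TBI values above every naive value. The share of all probes with no overlap between these groups was not counted. Icam1 was 4.74, 4.11, 3.74 and 5.14 against 2.96, 2.76, 3.27 and 3.24, a difference of 1.37 ± 0.30, or 2.59-fold (adjusted p = 0.0129), again with no overlap. Itga4 was -0.91, -0.65, -0.99 and 0.28 after TBI and between -1.76 and -1.35 in naive rats, of which 1 was above background (difference 0.99 ± 0.29, adjusted p = 0.0358), and this call was lost in 7 of 8 fits that left out 1 array (adjusted p from 0.0207 to 0.0858), with normexp (0.203) and without the filter on dim probes (0.0596). Vcam1 did not follow: its values were 5.57, 5.77, 6.00 and 5.05 after TBI and 5.88, 6.03, 6.16 and 6.10 in naive rats, a difference of -0.44 ± 0.18 (adjusted p = 0.097).

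Against sham, none of the 7 members tested in the cortex at 24 hr was called by limma, 6 had an unadjusted p below 0.05, and 0.217% of all tested probes were called. With normexp background correction 4 members were called, and without the filter on dim probes 4 were, while all called probes went from 56 to 9659 without the filter. Itgb2 came nearest, with sham values of 1.56, 2.60, 1.79 and 2.98 and a difference of 1.45 ± 0.33 (adjusted p = 0.071), and its TBI range began at 2.99, just above the highest sham rat. Itgal differed by 1.65 ± 0.51 (adjusted p = 0.108) with 2 of 4 sham rats above background, Itgam by 1.56 ± 0.49 (adjusted p = 0.113), Icam1 by 0.98 ± 0.30 (adjusted p = 0.107), Cd44 by 1.88 ± 0.61 (adjusted p = 0.12) and Itga4 by 0.74 ± 0.29 (adjusted p = 0.174). The sham rats were spread out. Sham rats 2 and 4 had Cd44 values of 4.27 and 4.16 and rats 1 and 3 had 1.43 and 2.16, and rats 2 and 4 were also the higher pair for Itgb2, Itgam, Itgal and Icam1. Sham minus naive was 1.82 ± 0.60 for Cd44 (adjusted p = 0.0519), and on a second Cd44 probe, read as 2.45 and 2.15 in sham rats 2 and 4 and -0.16 and 0.28 in rats 1 and 3, it was 1.80 ± 0.56 and passed (adjusted p = 0.0437). On the first probes 0 of 5 members passed for sham against naive in limma, 1 had an unadjusted p below 0.05, and 19.2% of all probes were called. Vcam1 differed by -0.10 ± 0.18 from sham (adjusted p = 0.788), and all its sham values lay below the naive ones.

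The marker lists of the cortex at 24 hr also rose against naive: 6 of 6 monocyte genes (summed level 8.08 to 9.44 after TBI, 6.49 to 8.26 in sham and 6.29 to 7.11 in naive rats), 3 of 3 tested neutrophil genes (3.90 to 7.39, 2.74 to 5.57 and 2.46 to 3.24) and 3 of 5 T cell genes (2.57 to 3.62, 2.05 to 2.55 and 1.89 to 2.04). Of the microglia and macrophage list 3 genes rose and 3 fell (9.06 to 9.51, 8.53 to 9.01 and 8.87 to 9.16), and of 9 endothelial genes none was called (8.99 to 9.45, 8.94 to 9.40 and 9.24 to 9.48). Elane, Mmp8, Ngp and Np4 were not well above background in any naive rat. Against sham no gene of these lists was called. Of all tested probes, 17.5% were called for TBI against naive and 0.217% for TBI against sham. The part of these cells in the adhesion signals was not tested.

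At 2 weeks the TBI cortex had the highest group means of Itgb2 and Itgam among the 24 groups of the larger design. The Itgb2 values were 4.69, 4.13, 3.75 and 4.87 after TBI, 1.55, 1.37, -1.98 and 2.32 in sham rats and 1.53, 2.71, 2.04 and -0.11 in naive rats, so TBI lay above both groups. With all arrays the difference from sham was 3.55 ± 0.87, and it did not pass (adjusted p = 0.28). None of 6 tested members was called by limma against sham, with 3 at an unadjusted p below 0.05, beside 0.00848% of all probes. The median difference of all probes was 0.95, because sham rat 3, at -1.98 for Itgb2, had low values relative to its array median. Without sham rat 3 that median was 0.01, and 4 of 6 members rose, beside 2.16% of all probes. Itgb2 then differed by 2.61 ± 0.41, or 6.12-fold (adjusted p = 3.34e-06). Itgam was 5.37, 4.84, 3.58 and 5.89 after TBI and 2.71, 2.17 and 3.00 in the other sham rats, a difference of 2.30 ± 0.42, or 4.91-fold (adjusted p = 6.9e-05), and its second probe differed by 3.26 ± 0.38, with 1 of 3 sham arrays above background. Itgal was -0.01, 0.10, -0.37 and 0.92 after TBI and not well above background in the other sham rats, at least 1.68-fold higher (adjusted p = 0.000207). It was tested only because every TBI array had it well above background. Cd44 was 2.95, 4.10, 3.28 and 3.48 against 1.54, 1.80 and 1.80, a difference of 1.74 ± 0.40, or 3.34-fold (adjusted p = 0.00319). The SEs of the tested members in this fit lay between 0.38 (Icam1) and 0.43 (Itgal). Moderation in limma draws the spread of each probe towards a spread shared by all probes. The small adjusted p-values without sham rat 3 rest partly on that shared spread.

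Of the integrin ligands at 2 weeks, Icam1 was 4.18, 4.27, 3.69 and 4.23 after TBI, 3.54, 3.56, 0.84 and 3.43 in sham rats and 3.10, 3.18, 3.04 and 1.67 in naive rats, and all TBI values lay above the others. Without sham rat 3 it differed from sham by 0.58 ± 0.38 and did not pass (adjusted p = 1). Vcam1 was 6.30, 6.40, 6.32 and 6.27 after TBI, 5.96, 5.67, 1.07 and 5.72 in sham rats and 5.75, 5.99, 5.97 and 4.21 in naive rats, likewise with no overlap, and differed from sham by 0.54 ± 0.39 without sham rat 3 (adjusted p = 1). Naive rat 4, kept in the model, enters both differences from sham only through the common spread. With that array also left out, 5 of 6 members were called against sham, so that 1 of these 2 ligands then passed. Against naive, none of 6 members was called with all arrays in the model, with 4 at an unadjusted p below 0.05 in limma and 0.124% of all probes called, although a second Itgam probe was (2.96 ± 0.45, adjusted p = 0.0338). Without sham rat 3, which enters that comparison only through the common spread, 5 of 6 members rose beside 4.94% of all probes: Itgb2 by 2.82 ± 0.39 (adjusted p = 7.49e-08), Itgal by 2.83 ± 0.41 (adjusted p = 1.98e-07) with 1 of 4 naive rats above background, Cd44 by 2.50 ± 0.38 (adjusted p = 6.67e-07), Itgam by 2.48 ± 0.39 (adjusted p = 2.36e-06) and Icam1 by 1.35 ± 0.35 (adjusted p = 0.00875). Itgal was tested here only because every TBI array had it well above background. A second Cd44 probe differed by 1.14 ± 0.38, or 2.20-fold, did not pass (adjusted p = 0.0709) and had overlapping ranges. The median of all probes was 0.41 in this comparison, which holds naive rat 4. Vcam1 differed by 0.84 ± 0.36 and did not pass (adjusted p = 0.203). With naive rat 4 left out, the differences from naive were 2.27 for Itgb2, 1.98 for Cd44 and 0.99 for Icam1. That of Itgal was 3.53, but no remaining naive array had Itgal well above background, so this is not a measured fold. Sham and naive did not differ by the test for any of 5 members, with all arrays (0 at an unadjusted p below 0.05 in limma, 0% of all probes called) or without sham rat 3 (2 at an unadjusted p below 0.05, 0.124% of all probes).

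Without sham rat 3, 6 of 10 microglia and macrophage genes and 3 of 5 monocyte genes rose against sham in the cortex at 2 weeks, and 10 of 10 and 5 of 5 rose against naive. The summed level of the first list was 9.89 to 10.6 after TBI and at most 8.88 in sham and 9.01 in naive rats, and that of the second 8.06 to 8.76 after TBI, at most 6.87 in sham and at most 6.80 in naive rats. No TBI rat had Ccr2 well above background, nor Camp, Elane, Mmp8, Ngp, Np4 or RatNP-3b of the neutrophil list (summed level 2.98 to 4.02 after TBI, 2.95 to 3.27 in sham and 2.26 to 3.52 in naive rats). None of 9 endothelial genes was called in either comparison. Of all tested probes, 2.16% were called against sham and 4.94% against naive without sham rat 3. The part of these cells was not tested.

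From 3 months on no member was called in the cortex against sham by limma: 0 of 5 at 3 months (2 at an unadjusted p below 0.05, 0% of all probes called), 0 of 5 at 6 months (2 at an unadjusted p below 0.05, 0.0724% of all probes) and 0 of 5 at 12 months (0 at an unadjusted p below 0.05, 0% of all probes). Itgb2 at 6 months was 2.15, 4.06, 2.80 and 3.08 after TBI and 1.40, 1.80, 1.40 and 2.07 in sham rats, with no overlap (difference 1.36 ± 0.39, adjusted p = 0.274), while naive rat 4 reached 2.90. Cd44 at 3 months was 2.03, 3.33, 2.09 and 0.96 after TBI against 0.51, 1.24, 1.07 and 1.08 in sham (difference 1.12 ± 0.38, adjusted p = 1), and at 6 months 1.93, 1.46, 2.58 and 3.69 against 1.1, 1.58, 1.46 and 1.55 (difference 0.99 ± 0.39, adjusted p = 0.426). At each of these intervals 1 TBI rat lay within the sham range of Cd44. At 12 months the differences of Itgb2, Vcam1 and Icam1 lay between -0.01 and 0.01, with standard errors of 0.17, 0.10 and 0.12. Itgam differed by -0.76 ± 0.48 (adjusted p = 0.843; second probe 0.12 ± 0.27) and Cd44 by 0.28 ± 0.34 (adjusted p = 0.912), and neither passed.

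**Figure D3:**
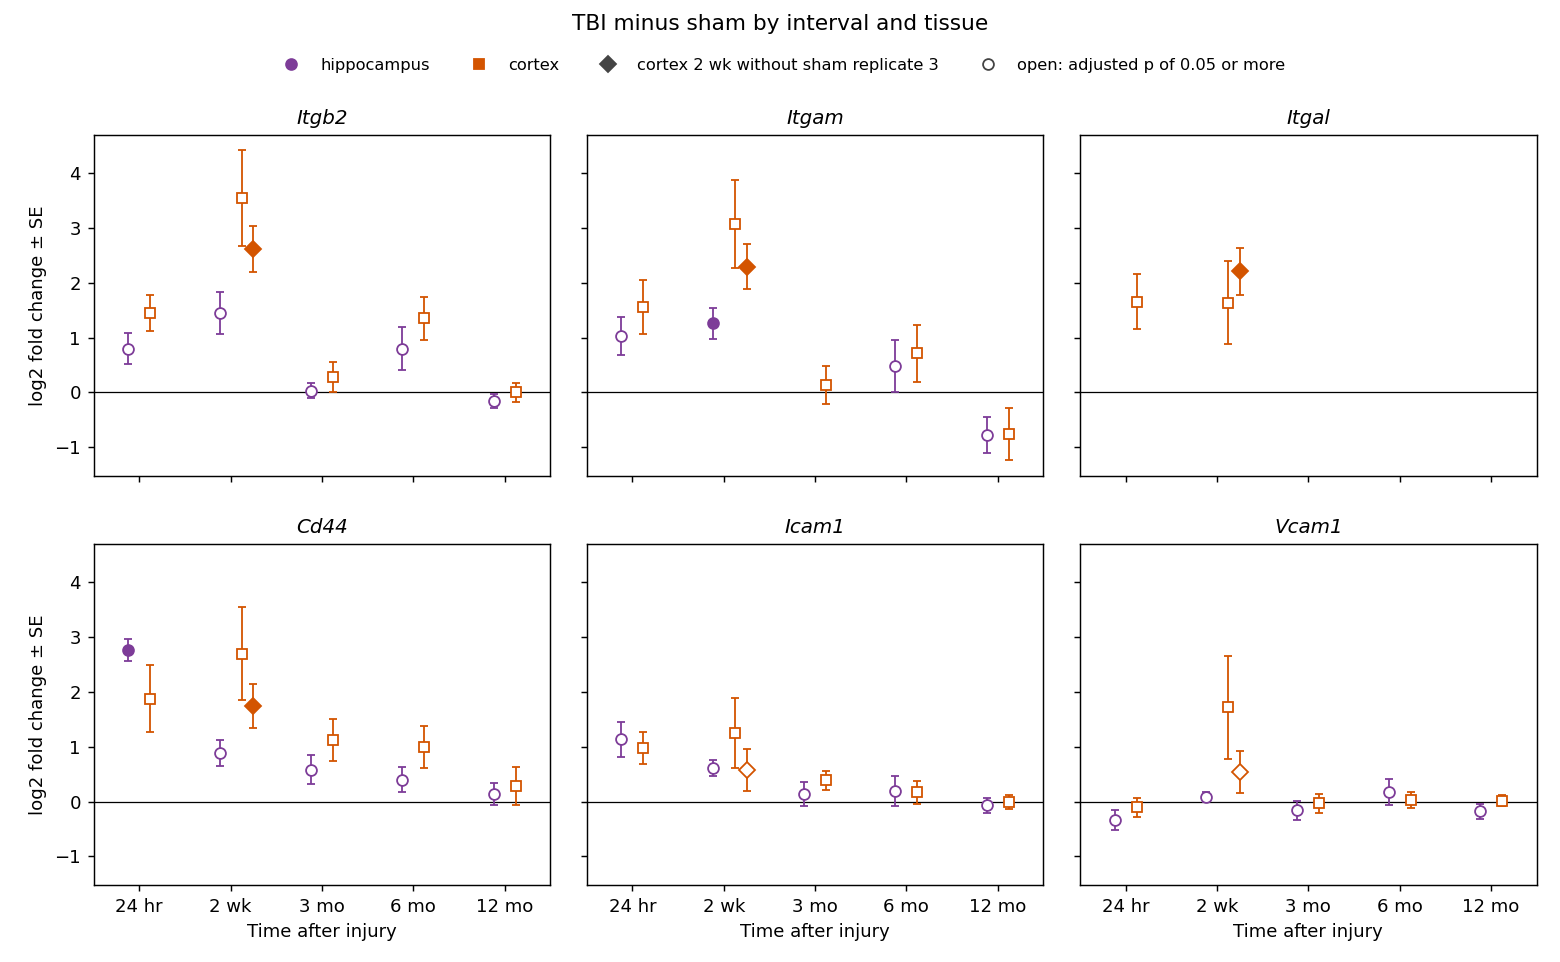
Log2 fold change (± SE) of TBI minus sham for 6 adhesion genes in hippocampus (circles) and cortex (squares) by time after injury, with the cortex at 2 weeks also shown without sham rat 3 (diamonds); filled symbols passed an adjusted p of 0.05 and untested comparisons are not drawn. Cd44 in the hippocampus at 24 hr (2.77) and Itgam at 2 weeks (1.26) are the filled circles, and Vcam1 has no filled symbol.

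The other comparisons with naive rats gave no call. For sham against naive in the hippocampus, 0 of 5 tested members passed in limma at 3 months (0 at an unadjusted p below 0.05, 0% of all probes called), 0 of 5 at 6 months (2 at an unadjusted p below 0.05, 3.54% of all probes) and 0 of 6 at 12 months (1 at an unadjusted p below 0.05, 3.11% of all probes), where Itgam was 1.20 ± 0.32 higher in sham with no overlap (adjusted p = 0.0707). In the cortex, 0 of 5 passed at 3 months (0 at an unadjusted p below 0.05, 0.404% of all probes), 0 of 5 at 6 months (0 at an unadjusted p below 0.05, 0% of all probes) and 0 of 5 at 12 months (1 at an unadjusted p below 0.05, 4.35% of all probes). For TBI against naive in the hippocampus, 0 of 5 passed in limma at 3 months (0 at an unadjusted p below 0.05, 0.0062% of all probes), 0 of 6 at 6 months (0 at an unadjusted p below 0.05, 3.81% of all probes) and 0 of 6 at 12 months (1 at an unadjusted p below 0.05, 2.18% of all probes). In the cortex, 0 of 5 passed at 3 months (0 at an unadjusted p below 0.05, 0.538% of all probes), 0 of 5 at 6 months (2 at an unadjusted p below 0.05, 0.273% of all probes) and 0 of 5 at 12 months (1 at an unadjusted p below 0.05, 5.33% of all probes).

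**Figure D4:**
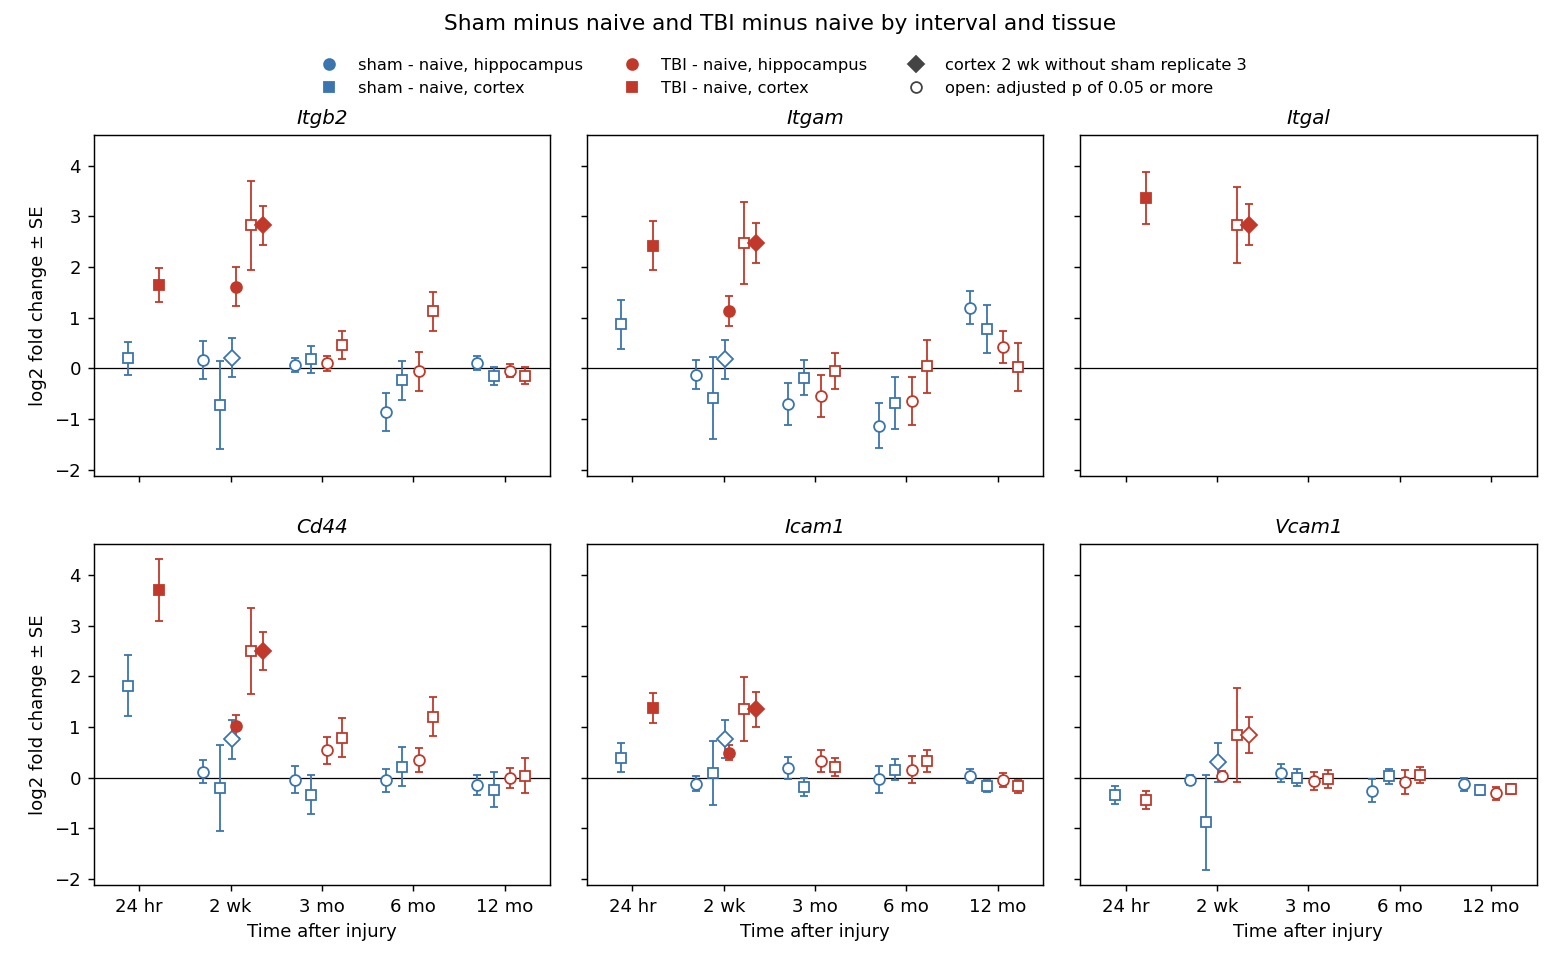
Log2 fold change (± SE) of sham minus naive (blue) and TBI minus naive (red) for 6 adhesion genes in hippocampus (circles) and cortex (squares) by time after injury, with the cortex at 2 weeks also shown without sham rat 3 (diamonds); filled symbols passed an adjusted p of 0.05. All filled symbols are TBI minus naive at 24 hr or 2 weeks, from 0.50 (Icam1, hippocampus at 2 weeks) to 3.70 (Cd44, cortex at 24 hr).

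The difference of the TBI effect between intervals was tested within a tissue. In the hippocampus, the TBI minus sham effect of Itgam was larger at 2 weeks than at 12 months by 2.03 ± 0.46 (limma, adjusted p = 0.0346), the only one of 6 members called, beside 0.847% of all probes, with Itgb2 at 1.60 ± 0.42 (adjusted p = 0.0829) and Icam1 at 0.68 ± 0.20 (adjusted p = 0.125). The Itgam call was lost in 11 of 16 fits that left out 1 array (adjusted p from 0.00927 to 0.0958) and without the filter on dim probes (0.0839), and a second Itgam probe did not pass (1.71 ± 0.51, adjusted p = 0.129). Between 2 weeks and 6 months none of 6 members was called in limma, with 0 at an unadjusted p below 0.05, beside 0% of all probes. In the cortex, none was called with all arrays: of 7 members, 1 had an unadjusted p below 0.05 against 24 hr (0% of all probes called), and of 6 members 3 did against 3 months (0%), 2 against 6 months (0%) and 3 against 12 months (0.149%). A second Itgam probe passed for 2 weeks minus 12 months in the cortex (3.02 ± 0.51, adjusted p = 0.0125). Without sham rat 3 of the cortex at 2 weeks, 2 of 6 members passed for 2 weeks minus 12 months beside 0.926% of all probes, Itgb2 at 2.61 ± 0.55 (adjusted p = 0.0127) and Itgam at 3.05 ± 0.72 (adjusted p = 0.03). Against 24 hr (0.0308% of all probes called), 3 months (0.219%) and 6 months (0.0279%) it gave no call, with Itgb2 at 1.16 ± 0.62, 2.33 ± 0.58 and 1.26 ± 0.65 in that order and 0, 3 and 2 members at an unadjusted p below 0.05 in limma, although the second Itgam probe passed against 3 months (3.24 ± 0.57, adjusted p = 0.00879).

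The TBI effect did not differ by the test between hippocampus and cortex for any member, and 1 of 7 members at 2 weeks, 0 of 6 at 6 months and 0 of 6 at 12 months had an unadjusted p below 0.05 in limma, beside 0%, 0.004% and 0% of all probes called. Without cortex sham rat 3, the hippocampus minus cortex difference at 2 weeks was -1.17 ± 0.64 for Itgb2, -1.04 ± 0.61 for Itgam, -0.85 ± 0.52 for Cd44 and 0.03 ± 0.38 for Icam1, with none of 7 called (0 at an unadjusted p below 0.05, 0% of all probes). Tissues were not compared at 24 hr and 3 months, when they lay on different designs.

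Ordered by group mean over the 24 groups of the larger design, Itgb2 was highest in the TBI cortex at 2 weeks (4.36 ± 0.51, SD) and then at 24 hr (3.68 ± 0.54), followed by the TBI hippocampus at 2 weeks (3.57 ± 0.81) and the TBI cortex at 6 months (3.02 ± 0.79). Itgam was also highest in the TBI cortex at 2 weeks (4.92), and Icam1 was highest in the TBI cortex at 24 hr (4.43). Cd44 was highest in the TBI cortex at 24 hr (4.88 ± 0.85), and this group alone lay above the next, the TBI cortex at 2 weeks (3.45 ± 0.48), by more than the sum of both SDs. All other neighbours in the order of these genes, and all of those of Vcam1 (group means 4.60 to 6.32), lay within it. The lowest group mean of Itgb2, Itgam, Cd44 and Vcam1 was that of the cortex sham at 2 weeks, which holds sham rat 3.

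Genes that work with the adhesion molecules were counted on 5 lists of 82 genes, chosen with earlier results of these data known. Of the list for integrin activation and actin linkage, which holds Fermt3, Tln1, Rac2, Cybb and others, 9 of 20 tested genes were called higher in the hippocampus at 24 hr against sham (median difference 1.11, beside -0.02 over all probes) and 9 of 21 at 2 weeks (0.63 beside -0.11). Against naive, 10 of 21 were higher in the hippocampus at 2 weeks and 14 of 21 in the cortex at 24 hr (1.06 beside -0.07), and without sham rat 3, 9 of 21 were higher than sham in the cortex at 2 weeks (1.15 beside 0.01). None of these comparisons called a gene of this list lower. The shares of all tested probes called in these comparisons are given above. Of the endothelial and junctional adhesion list, 1 of 12 was higher in the hippocampus at 24 hr, 0 of 11 at 2 weeks, and 0 of 12 in the cortex at 2 weeks without sham rat 3. In the same order, 13.5%, 2.32% and 2.16% of all tested probes were called against sham. In the cortex at 24 hr against naive, 1 of 13 was higher and 1 lower (median -0.05 beside -0.07 over all probes, of which 17.5% were called). In the cortex at 24 hr against sham, no gene of the 5 lists was called.

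The chemoattractant list, whose products arrest rolling leukocytes by activating integrins, had 6 of 13 genes higher in the hippocampus at 24 hr and 3 of 10 at 2 weeks against sham. Of all tested probes, 13.5% and 2.32% were called in these comparisons. The monocyte chemoattractant Ccl7 was not well above background in either sham rat and was at least 71.4-fold higher 24 hr after TBI (adjusted p = 0.00369), and Ccl2 rose by 6.24 ± 0.78 (adjusted p = 0.00761), with 1 sham rat above background. At 2 weeks Ccl3 rose by 2.75 ± 0.44 (adjusted p = 0.0248) with 1 of 4 sham rats above background, and Ccl4 was at least 3.25-fold higher (adjusted p = 0.0248). Against naive at 2 weeks 5 of 10 were higher and 1 lower in the hippocampus, beside 12.8% of all tested probes, with Ccl3 at least 5.89-fold higher (adjusted p = 0.00206). In the cortex at 24 hr against naive, 9 of 14 were higher and 1 lower, beside 17.5% of all tested probes, with Ccl2 at 5.38 ± 1.21 and Ccl7 at 4.66 ± 1.1 (adjusted p = 0.0147 and 0.0174). Without sham rat 3, 6 of 12 were higher than sham in the cortex at 2 weeks, beside 2.16% of all tested probes, with Ccl3 at least 6.24-fold and Ccl2 at least 6.28-fold higher (adjusted p = 2.61e-10 and 1.13e-09). Against naive 7 of 12 were higher there, beside 4.94% of all tested probes, with Cxcl10 at 3.94 ± 0.38 and Ccl3 at 3.74 ± 0.35 (adjusted p = 1.18e-12 and 2.05e-13). In the cortex at 24 hr, Ccl7 was well above background in all TBI and naive arrays. In these comparisons the other chemoattractants named, and Ccl7 in the hippocampus, were tested only because every TBI array had them well above background. For the TBI effect of 2 weeks minus 12 months, Ccl3 (3.55 ± 0.51) and Ccl4 (3.03 ± 0.56) passed in the hippocampus, as did Cd74 (4.45 ± 0.93) of the hyaluronan and Cd44 partner list. In the cortex with all arrays, Ccl2 (3.76 ± 0.62), Ccl3 (3.08 ± 0.55) and, of that same list, Spp1 (6.03 ± 0.63) passed. Without sham rat 3 they were 3.50 ± 0.53, 3.15 ± 0.49 and 6.20 ± 0.56 in that order and passed, with no 2-week sham array above background. With all arrays, 1 sham array of 2 weeks was above background for Ccl2, Ccl3 and Spp1, none for Ccl4 and all for Cd74.

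Of the hyaluronan and Cd44 partner list, 3 of 7 genes were higher and 1 lower in the hippocampus at 24 hr, and 1 of 9 was higher at 2 weeks. Of all tested probes, 13.5% and 2.32% were called in these comparisons against sham. Spp1, the secreted ligand of Cd44 known as osteopontin, rose by 5.40 ± 1.23 in the hippocampus at 24 hr (adjusted p = 0.0388). Against naive it rose by 3.56 ± 0.87 in the hippocampus at 2 weeks (adjusted p = 0.0232) and by 7.68 ± 1.15 in the cortex at 24 hr (adjusted p = 0.00728). In the cortex at 2 weeks it was at least 63.8-fold higher than naive with all arrays in the model (adjusted p = 0.000182). In each of these comparisons Spp1 was tested only because every TBI array had it well above background. It was also higher in sham than in naive cortex at 24 hr, by 3.79 ± 1.13 (adjusted p = 0.0368), in the comparison in which the second Cd44 probe passed, beside the oxidase subunit Cybb of the integrin activation list (1.43 ± 0.42, adjusted p = 0.0358) and, lower, the tight junction gene Ocln (-0.67 ± 0.21, adjusted p = 0.0434). There Spp1 and Cybb were tested only because every sham array had them well above background. Cd74, the invariant chain of MHC class II that pairs with Cd44 as a receptor, rose by 3.87 ± 0.55 in the hippocampus at 2 weeks against sham (adjusted p = 0.0238) and by 3.09 ± 0.55 against naive (adjusted p = 0.00705). Of the list of other leukocyte integrins and ligands, 1 of 8 was higher in the hippocampus at 24 hr, 0 of 9 at 2 weeks, 4 of 13 in the cortex at 24 hr against naive, with 1 lower, and 0 of 9 in the cortex at 2 weeks against sham without sham rat 3. In the same order, 13.5%, 2.32%, 17.5% and 2.16% of all tested probes were called.

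Over the 96 arrays of the larger design, the genes whose values most resembled those of a member among 14499 probes were named by Pearson r as a description, since arrays share slides, tissues and intervals. For Itgb2 they were the leukocyte phosphatase Ptpn6 (0.918), the adaptor Tyrobp of myeloid receptors (0.916), Cd300a (0.914), the nucleotide receptor P2ry6 (0.905) and the oxidase subunit Ncf1 (0.902). For Cd44 they were S100a4 (0.937), Cebpd (0.889), Gpnmb (0.882), Pdpn (0.873) and S100a3 (0.862), of which Cebpd and Pdpn had an r of 0.296 and 0.256 within the hippocampus, and for Icam1 Piezo1 (0.924), Tuba1c (0.914), Nfkb2 (0.897), Emp3 (0.890) and Ch25h (0.886). For Vcam1 (95 arrays) they were Gpr37l1 (0.957), Apoe (0.957), Pon2 (0.956), Cst3 (0.953) and Tpp1 (0.952), and without cortex sham rat 3 of 2 weeks these were between 0.825 and 0.841, whereas those of the lists of Itgb2, Cd44 and Icam1 stayed at or above 0.842. No gene was on more than 1 of these lists. Among the members, Itgam and Itgb2 had an r of 0.815 and Cd44 and Itgb2 0.746. Icam1 and Vcam1 had an r of 0.411, and 0.122 without that array, with 0.645 within the hippocampus and 0.337 within the cortex. Which cells of the bulk tissue gave the Icam1 and Vcam1 signals was not tested.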

How the data were processed

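Hippocampus and cortex RNA of single rats was hybridized to Agilent rat arrays with 1 dye, 113 arrays in all. The deposited scanner output holds background-corrected processed intensities made by the authors with Agilent Feature Extraction (version not given in the sources used here). The authors' value table holds linear signal values that, within 0.05 log2 for a median of 99.8% of the probes of an array, equal the processed intensity divided by 1 constant per array, at a median percentile of 74.9.

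Spots flagged as outliers and control spots were left out, replicate spots were averaged, and log2 processed intensities were centered on the median of each array. Probes were named through RefSeq accessions (46.3% of probes of the larger design and 61.4% of the smaller). All groups of a tissue and interval entered 1 linear model in limma 3.58.1 (R 4.3.3) with empirical Bayes moderation. A probe was tested when all arrays of 1 or more of the compared groups had it well above background, p-values were adjusted over these by Benjamini-Hochberg, and an adjusted p under 0.05 was called. The 37 comparisons were TBI, sham and naive against each other at each interval, and the TBI minus sham effect between tissues and between intervals. Where 1 group of a pair had no array well above background, the fold is a bound against the lowest signal that was well above background on each array. The fit was tested on simulated data.

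The named genes were all members, the 5 genes most like Itgb2, Cd44, Vcam1 and Icam1 by Pearson r, and the called genes with the 3 largest changes of the context lists in comparisons with a called member probe. The members and lists were chosen with earlier results of these data known. Alternatives were scaling to the 75th percentile, quantile normalization, normexp (offset 50, on the median signal, since the deposited files used here hold no mean signal), the authors' values, no filter, a replicate block, the 2 groups alone, other probes, and leaving out each array. A slide block was not run, because no group spans more than 1 slide. The labels give both tissues of a group the same replicate numbers, without saying that a number is 1 rat. Deviations of same-numbered tissues from the group means had correlations from -0.15 to 0.434 at 2 weeks (10 of 12 over 0.1), -0.384 to 0.475 at 6 months (8 of 12) and -0.0756 to 0.461 at 12 months (5 of 12), and a random block on the number changed no call between tissues. Within a tissue the rats of a group are separate animals.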

Additional observations from a re-analysis of the deposited data

Results flagged for a closer look

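In 10 of 134 sets of 4 values, each of 1 gene in 1 group, 1 array lay far from the others. The rule was a gap to the nearest value that took up most of the set's range, by Dixon's 95% limit. Chance gives this in about 5% of independent sets. Sets of the same group share their arrays, so the 10 sets were not tested against that rate. Of the 10, 3 came from cortex sham rat 3 at 2 weeks, with Cd44 at -2.11, Icam1 at 0.845 and Vcam1 at 1.07, and 2 from cortex naive rat 4 at 2 weeks, with Icam1 at 1.67 and Vcam1 at 4.21. In the naive cortex, Cd44 was high in rat 3 at 12 months (1.98) and Itgb2 in rat 4 at 6 months (2.90). Icam1 was low in the TBI cortex of rat 3 at 2 weeks (3.69). In the hippocampus, Cd44 was low in sham rat 1 at 2 weeks (1.76), and Itgb2 was low in TBI rat 1 at 12 months (2.21, with the nearest at 2.69).

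The TBI minus sham effect differed between intervals by limma's test of the difference for Itgam in the hippocampus, larger at 2 weeks than at 12 months by 2.03 (adjusted p = 0.0346), and for the second Itgam probe in the cortex, by 3.02 between the same intervals (adjusted p = 0.0125). At 12 months the Itgam signal of the hippocampus was highest in sham rats, 1.20 ± 0.32 above naive without passing (adjusted p = 0.0707), and 0.78 above TBI.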

How the results depend on the processing

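No called difference of a member changed direction in any alternative run. In the hippocampus, the 1 member called against sham at 24 hr became 3 with normexp and 0 with no filter, where 0 probes in all were called. The 1 called against sham at 2 weeks became 2 with the 75th percentile, 2 with quantile normalization, 4 with normexp, 2 with the authors' values, 0 with no filter and 0 with the 2 groups alone. Against naive at 2 weeks, the 4 called became 0 with no filter and 1 with the 2 groups alone. Of sham against naive, 0 became 1 with the 75th percentile and 1 with the 2 groups alone at 6 months, and 1 with normexp and 2 with no filter at 12 months. For 2 weeks minus 12 months, 1 became 2 with normexp and 0 with no filter. In the cortex, 0 called against sham at 24 hr became 4 with normexp and 4 with no filter. At 2 weeks against sham, 0 became 3 with the 75th percentile, 2 with no filter, 4 without sham rat 3 and 5 without it and naive rat 4. At 2 weeks against naive, 0 became 2 with the 75th percentile, 1 with the authors' values, 5 with the 2 groups alone, 5 without sham rat 3 and 5 without both. Of sham against naive at 12 months, 0 became 3 with no filter. Of the TBI effect at 2 weeks, 0 became 1 with the 75th percentile against 3 months, and 2 with the 75th percentile, 2 with normexp and 4 with no filter against 12 months. Leaving out both cortex arrays at once, or sham rat 3 where it is no array of the groups compared, was chosen after seeing the data. The cause was not tested.

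With a replicate block, the 1 member called against sham in the hippocampus at 2 weeks became 0, and 0 became 1 for sham against naive in the hippocampus at 6 months. The block changed no other count of members by over 1.5 times. Same-numbered TBI and sham rats deviated together in all 4 pairs only in the cortex at 12 months (correlations from 0.132 to 0.26), where no member was called with or without the block, and elsewhere the samples share only a number.

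When 1 array was left out, the count against sham ranged from 1 to 2 in the hippocampus at 24 hr (2 without TBI rat 3), from 0 to 4 at 2 weeks (4 without TBI rat 2), from 0 to 2 in the cortex at 24 hr (2 without TBI rat 3) and from 0 to 4 at 2 weeks. Against naive it ranged from 0 to 4 in the hippocampus at 2 weeks (0 without TBI rat 3), from 5 to 7 in the cortex at 24 hr and from 0 to 5 at 2 weeks. For sham against naive it ranged from 0 to 2 in the hippocampus at 6 months (2 without naive rat 2), from 0 to 1 at 12 months (1 without naive rat 4) and from 0 to 1 in the cortex at 24 hr (1 without sham rat 1 or 3). For 2 weeks minus 12 months it ranged from 0 to 3 in the hippocampus (3 without TBI rat 2 of 2 weeks) and from 0 to 2 in the cortex (2 without sham rat 3 of 2 weeks). In the other comparisons it stayed at 0.

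Counts of all called probes moved more than those of the members. In the hippocampus against sham they were 2260 at 24 hr (0 with no filter to 3488 with normexp) and 582 at 2 weeks (4 with no filter, and under 582 in every alternative run that leaves out no array). In the cortex against sham they were 56 at 24 hr (0 with the replicate block to 9659 with no filter) and 2 at 2 weeks (0 to 4558 with no filter), and against naive 4535 at 24 hr (3579 to 4177) and 30 at 2 weeks (1 to 1045). With no filter, they went from 786 to 14174 for sham against naive at 12 months in the hippocampus, from 1097 to 7719 in the cortex, and from 38 to 10594 for 2 weeks minus 12 months in the cortex. Signal over background limits Sele, Selp, Itgal and Itga4, of which 22, 20, 16 and 4 of the 24 groups of the larger design had no array well above background.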
